A study of Mus musculus with 13 samples.

Results

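PD-1-high CD4 T cells that lack Foxp3 (PD1hi) were compared with Foxp3+ regulatory T cells (Treg), both sorted from mouse spleen and measured by RNA sequencing. Of the 13 libraries of the study, the 8 that belong to these populations were used, 3 of PD1hi and 5 of Treg cells, chosen by the population named in the label. Both populations carry a GFP reporter of Foxp3: PD1hi cells were gated as CD4+, GFP-negative and high for surface PD-1, and Treg cells as CD4+, GFP-positive and PD-1-negative, so the gates differ in both markers. The remaining 5 libraries come from conventional CD4 cells negative for both markers, and entered only the estimate of the spread. The sources used here do not give the strain, age, sex or treatment of the mice, nor how many animals stand behind a library. Each of experiments 3, 5 and 6 supplied both populations, and the 2 Treg libraries of experiment 3 and of experiment 6 were averaged, so that every population had 3 values (n = 3) that could be paired by experiment. Nothing states that the experiments used separate animals, so the p-values speak of the spread over these samples alone, part of which may be technical.

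Treg cells are a CD4 lineage that restrains immune responses and depends on the factor Foxp3 and on interleukin-2 (IL-2), which they bind with a high-affinity receptor and largely do not make. PD-1 is an inhibitory receptor that T cells display after stimulation through the T cell receptor, and CD4 cells with much PD-1 and no Foxp3 are known to include follicular helper cells, which enter B cell follicles and provide IL-21, IL-4 and CD40 ligand to B cells. Follicular helper cells are known to depend on the repressor Bcl6 and to be opposed by IL-2 signals through STAT5 and by the repressor Prdm1, whereas Treg cells need both IL-2 and STAT5.

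Levels are scaled counts, read counts divided by the size factor of a library, without regard to gene length. They compare populations within a gene but not genes with each other. A run of 3 values always stands for experiments 3, 5 and 6 in that order. A change is the log2 difference PD1hi minus Treg of log2(scaled count + 1), with its standard error (SE) from limma, and passed the test where the adjusted p (Benjamini-Hochberg over all genes tested, 2-sided) was under 0.05. In these bulk libraries, fewer cells of a type and less RNA per cell cannot be told apart.

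The 8 libraries held 15971126 to 24216463 reads in genes. Pdcd1, which encodes PD-1, stood at 39713, 33610 and 38792 in PD1hi and at 1990, 1914 and 1961 in Treg, and Foxp3 at 121, 67.7 and 129 and 15895, 15373 and 16400: both follow the gates and are a check of the labels, not a result. The first principal component of the 8 libraries (54.8% of variance) placed the 3 PD1hi libraries apart from the 5 Treg libraries. On the second (13.9%), 2 libraries stood apart, PD1hi experiment 6 at 55.03 and the second Treg library from experiment 3 at 54.17, while the other 6 lay at -33.93 to -6.037. Among markers of other cells, the B cell gene Ms4a1 reached at most 96.4 in any library. Cd79b was at 84.9 to 159 in PD1hi and 450 to 724 in Treg libraries. Cd22 went the other way, at 1488 to 1949 and 171 to 286. Of 12 B cell markers tested, 4 were lower in PD1hi and 1 was higher, against 9.1% and 9.24% of all genes tested. The summed level of 6 plasma cell markers was 3927 to 7391 in PD1hi and 6525 to 9618 in Treg libraries. The summed level of the 16 B cell genes in the table was 45639 to 59427 in PD1hi and 72063 to 94669 in Treg libraries, most of it Ighm, the heavy chain of IgM. The summed level of 12 myeloid markers was 452 to 659 and 321 to 1004, and that of 8 markers of CD8 T, NK or innate-like T cells 479 to 768 and 452 to 686. Such sums can hide markers that go opposite ways. Itgam was at 8.2 to 23.2 in PD1hi and 83.5 to 219 in Treg libraries, and Cd68 at 111 to 229 and 30.7 to 84.3. Cd8b1 was at 54.4 to 133 and 197 to 318, while Klrb1c overlapped, at 179 to 362 and 83.5 to 213. The part of these cells in the results was not tested.

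Of 14269 genes whose scaled count averaged 10 or more, 1318 (9.24%) were higher in PD1hi and 1298 (9.1%) were lower, together 2616 (18.3%). The counts within gene lists given below stand against these shares. The sign was the same in all 3 experiments for 2613 of the 2616. Large differences leaned towards PD1hi: 446 genes rose and 362 fell by over 4-fold, 164 and 87 by over 16-fold, and 47 and 9 by over 64-fold. The 3 values of each side did not overlap for 2208 genes higher (15.5%) and 2142 lower (15%). With the conventional cells left out of the estimate of spread, 1682 genes passed, and without experiment 5 of Treg 1609. With both libraries that stood apart left out, a choice made after seeing the data, 3586 passed.

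**Figure D1:**
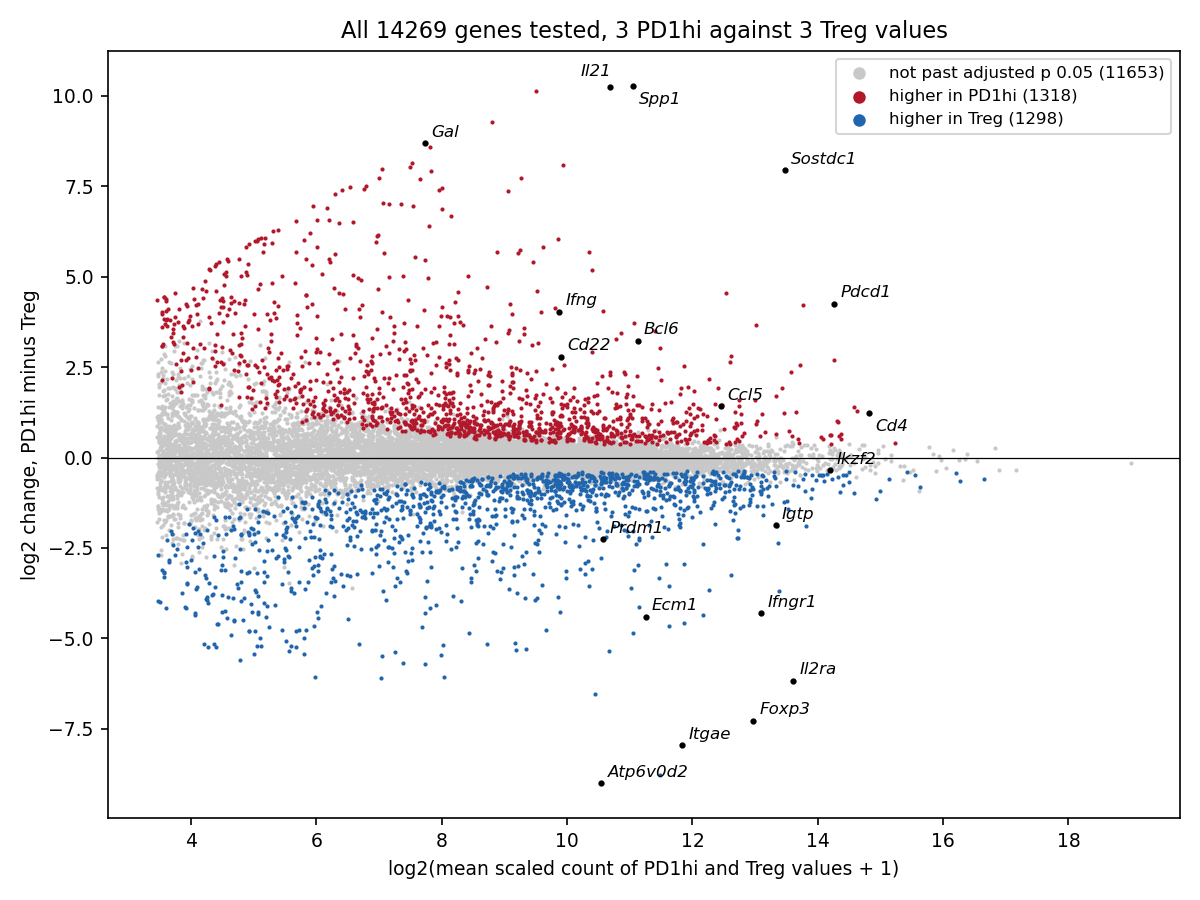
Change of each of 14269 genes (vertical axis, log2 PD1hi minus Treg) against its mean level (horizontal axis, log2 of the mean scaled count plus 1); red points are the 1318 genes higher in PD1hi, blue points the 1298 genes lower, grey points those not past adjusted p 0.05, and black points named examples. The red points reach further from 0 than the blue ones at low and middle levels, while the largest differences at high levels include both Sostdc1 (red) and Il2ra (blue).

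The largest increases were in genes nearly silent in Treg cells. Chn1, which encodes a GTPase-activating protein for Rac, stood at 1501, 1641 and 1200 in PD1hi and at 1.15, 0 and 0 in Treg. Gal, the gene of the neuropeptide galanin, was at 471, 304 and 490.3, with no read in any of the 5 Treg libraries, at least 761-fold higher against a floor of 3 reads over the Treg libraries. Edn3, which encodes the vasoactive peptide endothelin 3, was at 291, 449.6 and 362 against 1.15, 0 and 0. These 3 genes were picked for the size and common sign of their change, so the gap between the populations follows from that choice. Sostdc1, a secreted antagonist of BMP and Wnt signals, was at 22614, 20446 and 24976 in PD1hi and 85.9, 95 and 94.1 in Treg.

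Spp1, Fbn2 and Tnc, genes of the extracellular matrix, were also among the 12 largest increases and were picked in the same way. Matrix genes as a list, chosen after the values were seen, went both ways: 6 of 11 tested were higher and 3 lower. Over all genes tested, 9.24% were higher and 9.1% lower. The lower members Ecm1, Matn2 and Lamc1 changed by -4.39, -3.37 and -3.16. Spp1, which encodes the secreted matrix protein osteopontin, was at 3979, 4215 and 4514 in PD1hi and 6.77, 0 and 4.1 in Treg. Fbn2 (fibrillin 2, a microfibril protein) was at 859, 786 and 1018 in PD1hi and 0.468, 0 and 0.937 in Treg. Tnc (tenascin C, a matrix glycoprotein) was at 304, 459.7 and 575 against 0, 0 and 0.468. Counting only reads, the ratio was 1601 for Fbn2 (exact 95% interval 547 to 7771) and 2412 for Tnc (432 to 95324), intervals that cover counting error only. The wide intervals come from 3 and 1 Treg reads.

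Flrt2, a membrane adhesion protein, was at 199.9, 216 and 372 in PD1hi with no read in Treg, at least 471-fold higher against the same floor. Vdr, the nuclear receptor of vitamin D, was detected in both populations and rose by 8.09 ± 0.26, from 6.3 ± 2.19 (mean ± SD) in Treg to 1951 ± 359 in PD1hi (limma adjusted p = 3.88e-07). Over all genes tested, 67 with at most 3 reads in all Treg libraries together passed as higher in PD1hi, 34 of them with no Treg read. A further 2 with as few Treg reads did not pass. All 18 tested with at most 3 PD1hi reads passed as lower, 5 of them with none. Such genes reach the minimum mean of 10 only through the other population, so the filter sets their direction. The 3 reads are summed over 5 Treg but 3 PD1hi libraries, so these counts are not alike.

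Some of these loci carry a second transcript on the opposite strand, and whether the counting used strand is not stated, so reads of the partners cannot be told apart. In GENCODE M21 (GRCm38), Chn1 lies on the minus strand at chr2:73610660-73775346 and overlaps the antisense genes listed in the table as Gm13704, at 247, 232 and 597 in PD1hi, and Gm13706. Tnc (chr4:63959785-64047015, minus strand) overlaps 8030451A03Rik, at 523, 437 and 398 in PD1hi. Il21 (chr3:37222759-37232636, minus strand) overlaps Gm12534. All 4 partners were higher in PD1hi, with at most 2 reads in Treg for each but 8030451A03Rik.

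The 12 largest decreases, which include Foxp3, Il2ra and the integrin gene Itgae, ran through genes of varied function. Atp6v0d2, a subunit of the vacuolar proton pump known from osteoclasts, stood at 15.4, 11.1 and 0 in PD1hi and 2724, 3112 and 3094 in Treg. Gsta4, a glutathione transferase, was at 32.8, 18.2 and 1.09 against 595, 405 and 475. Sorcs2, a sorting receptor, was at 6.15, 6.06 and 0 against 337, 197 and 235. In all 3 the PD1hi value of experiment 6 was the lowest of the 6 values.

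Lrrc32, the surface anchor of latent TGF-β, was at 10.2, 15.2 and 10.9 in PD1hi and 5260, 6132 and 5670 in Treg, a change of -8.78 ± 0.34 (limma adjusted p = 1.11e-06). Ccdc46 (Cep112, a centrosomal protein), Lhfpl1 and the pseudogene Gm4956 were also among the 12 largest decreases, with changes of -6.08 ± 0.60, -5.50 ± 0.59 and -6.55 ± 0.46. For these 3, the mean in Treg was 516 ± 52.4, 256 ± 44.8 and 2745 ± 277 (SD), against 8.5 ± 7.09, 5.99 ± 4.51 and 36.1 ± 23.8 in PD1hi.

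Foxp3 lies at chrX:7573644-7595245 on the X chromosome, on the plus strand, and overlaps 3 further genes in the table. 4930524L23Rik (Flicr, a long non-coding RNA on the same strand) was at 5.12, 4.04 and 15.2 in PD1hi and 320.3, 455 and 474 in Treg. Ppp1r3f and Ccdc22, on the opposite strand, changed by -4.06 ± 0.24 and -3.83 ± 0.29. Reads where these genes overlap Foxp3 cannot be told apart, for the pair on the opposite strand because the strand setting is not stated, and for 4930524L23Rik because it shares the strand of Foxp3.

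**Figure D2:**
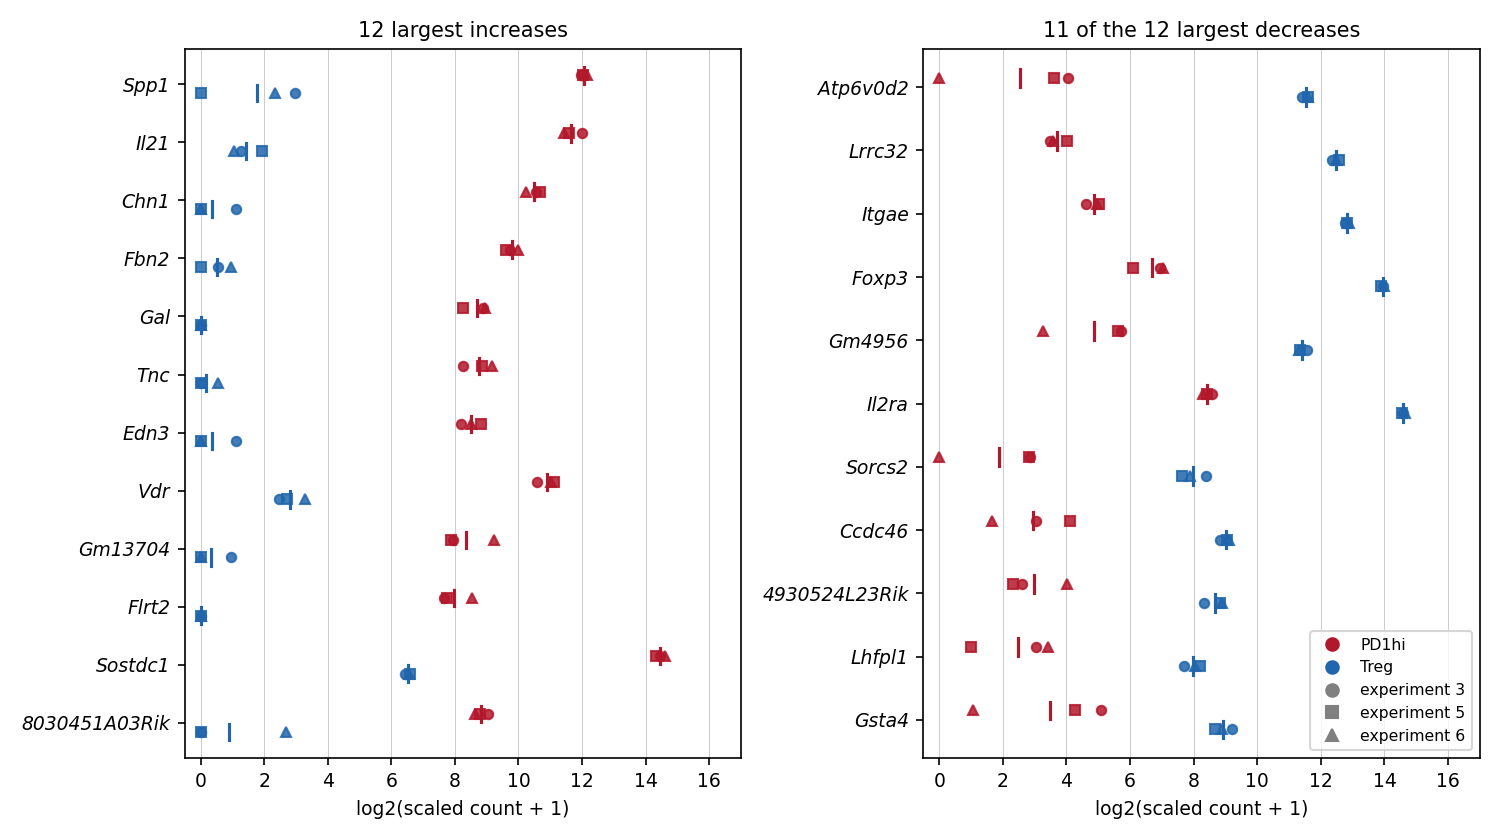
Scaled counts (log2 of the value plus 1, horizontal axis) of the 12 genes with the largest increase (left) and 11 of the 12 with the largest decrease (right) among genes at 200 or more in the higher population; red is PD1hi and blue is Treg, the symbols are experiments 3, 5 and 6, and vertical ticks are means of the 3 log2 values. Red and blue do not overlap for any gene shown, which follows from the choice of the largest changes, and the points at 0 have no read. Over all genes tested, 15.5% were higher and 15% lower without overlap.

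The receptor for IL-2 and its relatives were largely lower in PD1hi. Of 17 genes of the IL-2 receptor, the other receptors that share the common gamma chain, and their JAK-STAT pathway, 9 were lower in PD1hi, 1 was higher and 7 did not pass, with a median change of -0.77, against -0.0033 over all genes tested. Il2ra, the chain that gives the receptor its high affinity, stood at 377, 338 and 315 in PD1hi and 24347, 23905 and 25805 in Treg, a change of -6.17 ± 0.12 (limma adjusted p = 5.36e-08). The signalling chains differed far less. Il2rb was at 14655, 14852 and 13637 against 27841, 27483 and 27742, a change of -0.95 ± 0.11. Il2rg, the common gamma chain itself, was at 16660, 16811 and 14772 against 26558, 28054 and 27411, a change of -0.77 ± 0.12. For all 3 chains every PD1hi value lay below every Treg value.

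Other chains of the family went the same way. Il4ra, which binds IL-4 and IL-13, was at 1289, 1466 and 886 in PD1hi and 9685, 11896 and 12423 in Treg (-3.25 ± 0.17, limma adjusted p = 5.92e-06). Il7r, the receptor chain of the survival cytokine IL-7, changed by -1.19 ± 0.19. Il21r, the receptor of IL-21, changed by -0.88 ± 0.21, a call lost without Treg experiment 5 (adjusted p = 0.101) or 6 (0.0703). Il9r was the exception that rose, by 1.05 ± 0.18, from 264 ± 56.3 to 555 ± 172.

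Inside the pathway, the kinases and STAT5 itself did not pass while feedback targets did. Cish, a feedback inhibitor induced by STAT5, was at 262, 479.9 and 250.0 in PD1hi and 4339, 3727 and 3444 in Treg, a change of -3.59 ± 0.19 (limma adjusted p = 6.01e-06). Socs2, another STAT5-induced inhibitor, changed by -1.85 ± 0.17, from 593 ± 105 in Treg to 164 ± 31.1. Stat5b was at 2654, 3804 and 2994 against 3137, 4476 and 3329 (-0.21 ± 0.11, adjusted p = 0.246), with overlapping values, and Jak1 changed by -0.27 ± 0.17 (adjusted p = 0.333).

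Of the ligands of these receptors, Il21 and Il4 were higher in PD1hi. Il21 was at 4063, 3072 and 2754 in PD1hi and 1.4, 2.82 and 1.08 in Treg. Il2 itself was low in both, at 82, 55.6 and 3.26 against 22.9, 4.7 and 25.2, values that overlapped (0.83 ± 0.93, limma adjusted p = 0.604). Without PD1hi experiment 6, where Il2 was lowest of the PD1hi values, its change was 2.29 (adjusted p = 0.00593); without PD1hi or Treg experiment 5 it was -0.07 or -0.13. Il4, a ligand of Il4ra, was at 483, 338 and 485 against 2.34, 1.88 and 12.7, a rise of 6.40 ± 0.54 (adjusted p = 6.97e-05).

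Cytokine and chemokine genes were more often higher than lower in PD1hi: 14 of 22 tested were higher, 2 were lower and 6 did not pass, with a median change of 1.14; 6 further members of the 28 in the table were below the level needed for the test, among them Il17a, Il17f and Il22. Ifng, the macrophage-activating cytokine of Th1 cells, was at 1949, 1934 and 1388 in PD1hi and 182, 60.2 and 106 in Treg. Ccl3 and Ccl4, chemokines of activated T cells and macrophages, changed by 3.89 ± 0.49 and 3.38 ± 0.42. Ccl5, a chemokine of memory and effector T cells, was already high in Treg, at 3447, 2909 and 2568, and reached 5631, 11823 and 7404 in PD1hi (1.42 ± 0.22, limma adjusted p = 0.00231). Cxcl10, which attracts CXCR3+ cells, was at 855, 522 and 803 against 175, 137 and 137. The chemokine genes Xcl1 and Ccl1 changed by 2.45 ± 0.41 and 3.23 ± 0.61.

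Other ligands changed less. Tnf was at 494, 507 and 575 in PD1hi and 328, 319.7 and 349 in Treg (0.66 ± 0.15), without overlap, and did not pass without PD1hi experiment 5 (adjusted p = 0.0561) or Treg experiment 3, 5 or 6 (0.0538, 0.0777 and 0.0583), nor with the conventional cells left out of the fit (0.0752). Lta, which encodes lymphotoxin alpha, was lower in PD1hi, at 606, 529 and 733 against 1281, 1132 and 1098 (-0.92 ± 0.15). Il10, the cytokine most associated with suppression, stood at 246, 305 and 174 against 354, 247 and 178, a difference that did not pass (-0.08 ± 0.48, limma adjusted p = 0.93). Of the members of the TNF ligand family, Tnfsf8 (CD30 ligand) was at 30041, 29552 and 19919 against 1145, 1360 and 1719, Tnfsf11 (RANK ligand) changed by 1.83 ± 0.33, Tnfsf14 (LIGHT) by 3.04 ± 0.32 and Cd40lg by 3.04 ± 0.14.

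Interferon-γ and its receptor moved in opposite directions. While Ifng was higher in PD1hi (4.03 ± 0.36, limma adjusted p = 9.72e-05), Ifngr1, the ligand-binding chain, was at 875, 1138 and 598 in PD1hi and 14747, 19362 and 15801 in Treg (-4.29 ± 0.15, adjusted p = 6.8e-07). Ifngr2, the signalling chain, was at 224, 171 and 123 against 985, 852 and 947 (-2.46 ± 0.19). The PD1hi library of experiment 6 had the lowest value of all 6 for both Ifngr1 and Ifngr2, and without PD1hi experiment 6 the changes were -4.11 and -2.23.

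Families of GTPases that interferon-γ is known to induce, and that act on intracellular pathogens, were lower in PD1hi. Of the 11 guanylate binding protein genes tested, 10 were lower and none was higher, with a median change of -1.85, and 9 to 11 were lower under every alternative run. Gbp3 was at 964, 1008 and 647 in PD1hi and 6200, 6444 and 7032 in Treg. Gbp7, at 3862, 3797 and 2645 against 15205, 18733 and 18926, changed by -2.37 ± 0.17 (limma adjusted p = 2.8e-05). Gbp9 was the member that did not pass, at 3134, 3042 and 1452 against 3418, 4482 and 4833 (-0.81 ± 0.28, adjusted p = 0.0783); without Treg experiment 3 it did (-1.08, adjusted p = 0.0445). Some of these genes are near-identical copies, so reads may be split between them.

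The immunity-related GTPases, a family listed after its values were seen, were also lower: 10 of 12 tested were lower and none was higher, with a median change of -1.91. Igtp was at 4890, 4290 and 4101 in PD1hi and 15024, 16579 and 16756 in Treg (-1.87 ± 0.12). Iigp1 was at 3168, 2817 and 1424 against 9225, 12398 and 11600 (-2.23 ± 0.26). Gm4951 had the largest change of the family, -3.74 ± 0.24, and Irgq and Gm5431 were the members that did not pass.

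Genes of the type I interferon response were more often lower than higher. Of 20 tested, 11 were lower, 2 were higher and 7 did not pass, with a median change of -0.81. Usp18, a feedback inhibitor of the pathway, changed by -2.29 ± 0.18, and Ifit3 by -1.91 ± 0.20. Oasl2 and Mx1 were the members that rose, by 0.90 ± 0.18 and 0.85 ± 0.21; Mx1 lost its call without PD1hi experiment 5 (adjusted p = 0.0736) or Treg experiment 5 or 6 (0.113 and 0.0658). With the conventional cells left out of the fit, neither passed (adjusted p = 0.0521 for Oasl2 and 0.0659 for Mx1), so that none of the list was higher. Irf7 and Isg15, induced in most cells by type I interferon, did not pass, at -0.25 (limma adjusted p = 0.166) and -0.16 (adjusted p = 0.597).

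Promoters of the GTPase families were read from RefSeq (GRCm38.p6), from 250 bases before to 50 after the start of transcription, since these genes moved together and are classic interferon targets. The search used the gamma-activated site, TTCNNNGAA, and a core of the interferon-stimulated response element, GAAANNGAA, where N is any base, on both strands. The first reads the same on both strands and the motifs may overlap. Of 14 promoters found for 13 of the 23 GTPase genes tested, 10 held at least 1 of the motifs. Over all 32851 promoters in the table the share was 15.8%, over promoters of tested genes 13.6%, of genes higher in PD1hi 13.1% and of genes lower in PD1hi 17.7%. Some of the 14 promoters are near copies over the matched stretch, as are those of Igtp and Irgm2 and those of Tgtp1 and Tgtp2. They are therefore not independent. The 250 bases before the start are printed for 7 promoters that held a motif, 4 of guanylate binding proteins and 3 of immunity-related GTPases, to show where the motifs sit; capitals mark the matches.
Gbp7 promoter: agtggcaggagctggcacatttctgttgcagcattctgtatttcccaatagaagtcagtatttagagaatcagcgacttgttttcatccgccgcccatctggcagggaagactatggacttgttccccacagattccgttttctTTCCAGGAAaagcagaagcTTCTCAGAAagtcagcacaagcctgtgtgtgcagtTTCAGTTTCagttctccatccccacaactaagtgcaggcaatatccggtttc
Gbp2 promoter: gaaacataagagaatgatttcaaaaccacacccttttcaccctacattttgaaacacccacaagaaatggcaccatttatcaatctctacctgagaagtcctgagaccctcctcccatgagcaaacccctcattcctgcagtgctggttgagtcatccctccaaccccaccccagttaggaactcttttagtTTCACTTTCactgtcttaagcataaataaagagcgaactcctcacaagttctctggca
Gbp3 promoter: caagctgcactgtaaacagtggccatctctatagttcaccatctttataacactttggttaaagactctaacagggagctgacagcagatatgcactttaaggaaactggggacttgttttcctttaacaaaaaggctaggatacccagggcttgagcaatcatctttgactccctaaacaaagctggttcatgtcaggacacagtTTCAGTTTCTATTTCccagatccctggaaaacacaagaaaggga
Gbp5 promoter: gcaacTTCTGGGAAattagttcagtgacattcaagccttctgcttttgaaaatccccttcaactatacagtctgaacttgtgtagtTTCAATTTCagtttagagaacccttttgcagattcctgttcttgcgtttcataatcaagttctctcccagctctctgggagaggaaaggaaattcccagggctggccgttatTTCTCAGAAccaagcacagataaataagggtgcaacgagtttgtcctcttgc
Igtp promoter: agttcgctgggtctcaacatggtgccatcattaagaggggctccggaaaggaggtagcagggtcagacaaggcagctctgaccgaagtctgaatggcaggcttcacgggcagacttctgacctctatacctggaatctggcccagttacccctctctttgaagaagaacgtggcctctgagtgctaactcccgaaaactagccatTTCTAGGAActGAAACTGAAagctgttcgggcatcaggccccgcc
Irgm1 promoter: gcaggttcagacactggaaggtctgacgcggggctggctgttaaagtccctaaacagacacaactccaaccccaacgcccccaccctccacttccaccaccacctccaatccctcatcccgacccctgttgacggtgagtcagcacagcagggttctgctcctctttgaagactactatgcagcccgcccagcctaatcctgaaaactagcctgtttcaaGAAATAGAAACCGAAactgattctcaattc
Irgm2 promoter: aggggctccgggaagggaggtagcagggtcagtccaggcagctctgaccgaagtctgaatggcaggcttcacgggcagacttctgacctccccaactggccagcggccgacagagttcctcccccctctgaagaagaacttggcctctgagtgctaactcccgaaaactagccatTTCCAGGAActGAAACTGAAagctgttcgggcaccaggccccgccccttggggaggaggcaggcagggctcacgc

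These stretches lie at chr3:142530086-142530335, chr3:142620413-142620662, chr3:142559794-142560043 and chr3:142496684-142496933 and at chr11:58199306-58199555, chr11:48871421-48871670 and chr11:58214727-58214976, all on the plus strand except Irgm1. The Gbp7 promoter held 2 gamma-activated sites, starting 106 and 87 bases before the start, and a response element core at 52. The Gbp3 and Irgm1 promoters held overlapping pairs of the core, at 44 and 38 and at 30 and 24 bases before the start, and no gamma-activated site. In the Igtp and Irgm2 promoters, a gamma-activated site was followed 11 bases later by a core. A second Gbp3 entry and that of Ifi47, whose change was -1.33 ± 0.15, held neither motif. A match is a description of letters in this window and shows no binding.

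**Figure D3:**
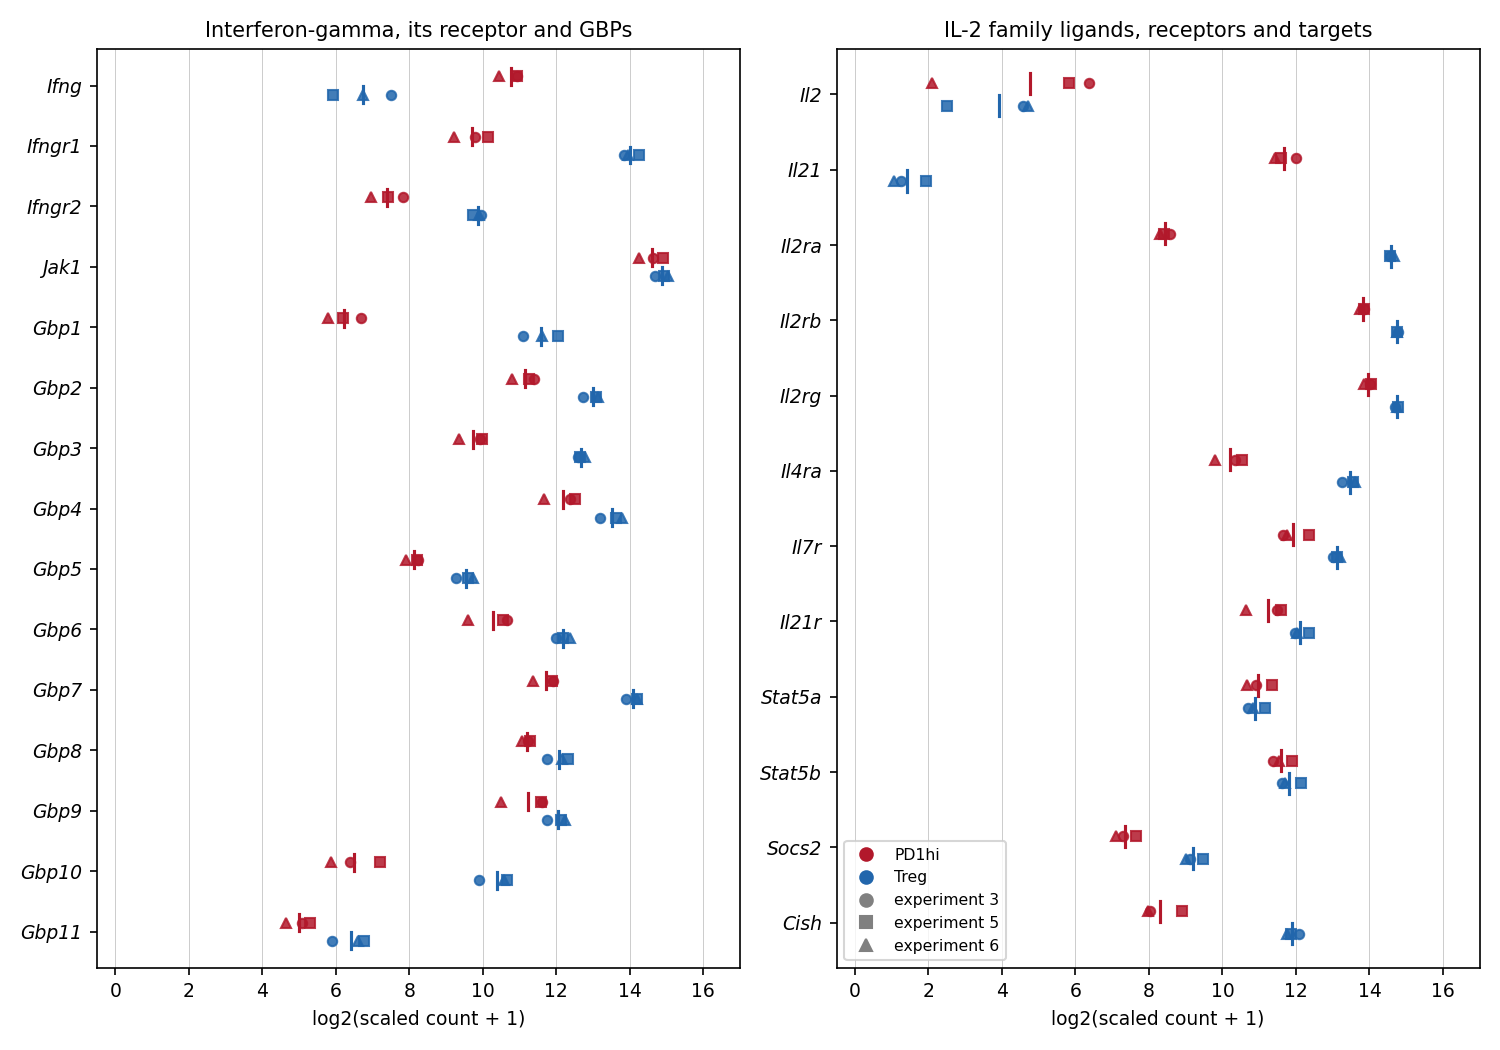
Scaled counts (log2 of the value plus 1, horizontal axis) of interferon-γ, its receptor chains, Jak1 and 11 guanylate binding proteins (left), and of IL-2 family ligands, receptor chains, Stat5 genes and 2 feedback inhibitors (right); red is PD1hi, blue is Treg, the symbols are experiments 3, 5 and 6, and ticks are means of the 3 log2 values. Ifng and Il21 are higher in PD1hi while Ifngr1, Il2ra and Cish are lower without overlap, and the values of Jak1, Stat5a and Stat5b overlap.

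Among receptors of other cytokines, most that passed were lower in PD1hi, with 9 of 16 lower and 3 higher. The shares over all genes tested were 9.1% lower and 9.24% higher. Il10ra and Il10rb, the chains of the IL-10 receptor, changed by -0.87 ± 0.12 and -0.66 ± 0.12. Il18r1, a chain of the IL-18 receptor, was at 193, 225 and 83.7 in PD1hi and 444, 761 and 856 in Treg. Il1r2, the decoy receptor of IL-1, went the other way, at 2980, 2449 and 2386 against 1002, 968 and 821 (1.48 ± 0.38, limma adjusted p = 0.025), though the call was lost without PD1hi experiment 5 (0.0698) or Treg experiment 3 or 5 (0.117 and 0.1). Of this list, 1 was higher without PD1hi experiment 5 or Treg experiment 3 or 5. Il12rb1 was lower (-1.03 ± 0.16, adjusted p = 0.117 without the pairing by experiment) while its partner in the IL-12 receptor, Il12rb2, rose by 1.19 ± 0.23.

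Genes of the TGF-β pathway went both ways. Of 23 tested, 5 were higher and 7 lower, against 9.24% and 9.1% of all genes tested. Without PD1hi experiment 5 or Treg experiment 6, 3 were higher. Tgfb3, a ligand, was at 611, 517 and 500.1 in PD1hi and 28.9, 34.8 and 65.1 in Treg. Tgfb1, the ligand best known in T cells, was at 21.5, 44.5 and 78.3 against 14.1, 67.7 and 34.4 (0.38 ± 0.44, limma adjusted p = 0.611). Tgfbr1, the kinase chain of the receptor, was at 896, 761 and 495 against 3348, 3612 and 4004 (-2.39 ± 0.22). The signal carrier Smad3 changed by -0.87 ± 0.13, and Acvrl1, a receptor kinase of the same family, was at 6.15, 13.1 and 0 against 129, 105 and 114.

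Genes that carry the T cell receptor signal were higher in PD1hi at several steps. Of 23 genes of the receptor complex and its proximal pathway, 11 were higher, 3 were lower and 9 did not pass (median 0.38); 7 were higher without Treg experiment 3 and 6 with the conventional cells left out of the fit. Zap70, the kinase that binds the phosphorylated receptor, was at 12596, 18262 and 16776 in PD1hi and 4552, 5458 and 4514 in Treg (1.70 ± 0.13). Themis, an adaptor, was at 7922, 7045 and 4226 against 1114, 847 and 1324 (2.52 ± 0.23), and the kinase Fyn changed by 1.38 ± 0.23. Cd4, the coreceptor, was at 38934, 47261 and 36011 against 15149, 17302 and 19031 (1.24 ± 0.14, limma adjusted p = 0.000397).

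Smaller changes were seen in the receptor complex, where Cd247, the zeta chain, rose by 0.59 ± 0.11, from 9821 ± 527 to 14808 ± 1820, a call at the threshold with the conventional cells left out of the fit (adjusted p = 0.05, not past it). Trat1, which stabilises the receptor complex, was lower, at 656, 490.0 and 552 in PD1hi and 2756, 2464 and 2569 in Treg (-2.20 ± 0.13). Grap2 (Gads), an adaptor downstream of LAT, changed by -1.69 ± 0.20.

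Most genes induced through the receptor did not pass. Of 29 tested, 7 were higher and 3 lower, against 9.24% and 9.1% of all genes tested, and 19 did not pass. Rcan1, a target and inhibitor of calcineurin, was at 523, 516 and 447 in PD1hi and 50.1, 89.3 and 37.8 in Treg (3.13 ± 0.28). Spry1 and Dusp6, inhibitors of the ERK pathway, rose by 1.99 ± 0.25 and 1.47 ± 0.24, and Egr1, an ERK-induced factor, by 1.10 ± 0.14. Myc, a driver of growth, was lower, at 922, 873 and 640.3 against 3249, 2412 and 3111 (-1.85 ± 0.16), and so was Dusp5 (-2.62 ± 0.44). The immediate early factor Fos did not pass (0.17 ± 0.11), at 16030, 8332 and 4865 in PD1hi and 15928, 6624 and 4288 in Treg, where the values of an experiment lay close together and the experiments far apart.

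Of 15 inhibitory receptors tested, 7 were higher in PD1hi, Pdcd1 of the gate among them, and 5 lower. Lag3, which binds MHC class II, was at 3033, 6059 and 4905 in PD1hi and 765, 1845 and 759 in Treg (2.13 ± 0.30). Cd160, a receptor for HVEM, was at 1232, 822 and 1019 against 401, 436 and 382 (1.31 ± 0.16). Btla and Cd200 rose by 1.09 ± 0.16 and 1.34 ± 0.17. Tigit, which binds CD155, was at 12256, 10511 and 8697 against 7122, 7070 and 6483 (0.59 ± 0.17, limma adjusted p = 0.0459), and did not pass on leaving out any 1 of the 6 values except PD1hi experiment 6, with adjusted p of 0.175 and 0.0519 without PD1hi experiment 3 or 5 and 0.123, 0.23 and 0.0566 without Treg experiment 3, 5 or 6, nor without the pairing by experiment (0.0755). Lower was Ctla4, the CD28 competitor on which Treg function depends, at 3566, 3080 and 3485 against 10840, 9269 and 9287 (-1.54 ± 0.14). The other lower members were Cd96 (-1.93 ± 0.16), Cd72 (-3.14 ± 0.16), at 168, 199 and 259 against 1724, 1914 and 1822, Lair1 (-1.49 ± 0.27) and Klrg1 (-5.33 ± 0.57). Cd22, a sialic acid receptor best known from B cells, was higher in PD1hi, at 1949, 1488 and 1588 against 222, 225 and 276, while the B cell gene Cd79b was lower (-2.31 ± 0.25). The part of B cell RNA in these values was not tested.

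Costimulatory receptors divided as well, with 8 of 21 higher in PD1hi and 5 lower, against 9.24% and 9.1% of all genes tested. Without PD1hi experiment 3 or Treg experiment 3 or 5, 5 were higher. Tnfrsf1b, the TNF receptor that supports Treg cells, was at 3179, 5777 and 2827 in PD1hi and 7837, 11567 and 8336 in Treg (-1.29 ± 0.13). Tnfrsf9 (4-1BB) changed by -1.82 ± 0.13, Tnfrsf4 (OX40) by -0.67 ± 0.21 and Tnfrsf18 (GITR) by -1.09 ± 0.13 (limma adjusted p = 2.8e-05, 0.0545 and 0.000415). Without PD1hi experiment 6, Tnfrsf4 passed (-0.86, adjusted p = 0.00385), as it did without the pairing (adjusted p = 0.0366). Icos, which follicular helper and Treg cells both use, was at 12279, 10515 and 10868 against 13423, 14242 and 14972 (-0.34 ± 0.11, adjusted p = 0.062); without PD1hi experiment 6 it was lower (-0.30, adjusted p = 0.0391).

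Among SLAM family genes, which steer contacts between T and B cells, 3 of 8 were higher and 2 lower. Sh2d1a (SAP), their adaptor, changed by 0.90 ± 0.12, Slamf6 was at 13879, 11469 and 11675 against 4055, 4184 and 3905, and Slamf1 by -1.36 ± 0.14. Slamf1 was at 1316, 1286 and 963 in PD1hi and 2994, 2967 and 3124 in Treg, with no overlap.

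Transcription factors of competing programmes stood opposite each other. Bcl6, the repressor of follicular helper cells, was at 4485, 3938 and 3685 in PD1hi and 316, 478 and 521 in Treg (3.23 ± 0.19), and Prdm1, which it is known to oppose, at 414, 859 and 399 against 2155, 2451 and 2876 (-2.25 ± 0.24). Ascl2, which directs helper cells to follicles, was at 1188, 973 and 1021 against 1.79, 10.3 and 7.26. Factors of other lineages did not follow a single direction: Tbx21 (T-bet) was at 208, 383 and 219.6 against 86.3, 173 and 76.6, Eomes rose by 2.32 ± 0.32, Ahr was lower (-2.49 ± 0.32), and Gata3 did not pass (-0.04 ± 0.13).

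Tcf7, the partner of β-catenin that supports follicular helper cells, was at 36250, 29966 and 35141 in PD1hi and 4850, 5470 and 5395 in Treg (2.69 ± 0.12), whereas its relative Lef1 did not pass (-0.26 ± 0.14). Over the naive list, which holds both, 13 of 22 were lower, 3 higher and 6 did not pass. Satb1, a chromatin organiser needed early in Treg development, was at 269, 264 and 329 against 2258, 2352 and 2613 (-3.07 ± 0.11). Foxo1, a factor of quiescence and homing, was at 2105, 1871 and 1886 against 7069, 5031 and 6532 (-1.66 ± 0.12), and its target Klf2 changed by -1.16 ± 0.24.

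Of 24 follicular helper genes, 23 were higher in PD1hi and none was lower, with a median change of 2.79; without PD1hi experiment 6, 1 was lower. Over all genes tested, 9.24% were higher and 9.1% lower. This list and the Treg list were chosen with earlier results of these libraries known, so their direction is not independent evidence. Pdcd1 and Foxp3 follow the gates, so in any list count that holds them they are not a result. Members with high levels included Angptl2, a secreted glycoprotein, at 11455, 13010 and 9793 against 484, 546 and 435, the membrane protein Gpm6b, at 17836, 17384 and 10688 against 978, 1371 and 1206, and Tbc1d4, a regulator of vesicle traffic, at 27911, 22807 and 18350 against 3806, 3642 and 4193. Id2, which is known to restrain E proteins and follicular helper cells, was also higher, at 7134, 9553 and 6721 against 3031, 2627 and 2617 (1.49 ± 0.13). The same holds for Ctsb, the lysosomal protease cathepsin B (1.29 ± 0.11), and the tetraspanin Cd82 (1.41 ± 0.11), which are among the 8 genes with the highest scaled count in PD1hi of the 844 that rose over 2-fold (5.91% of genes tested).

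Of 32 Treg genes, 20 were lower, 3 were higher and 9 did not pass, where 9.1% of all genes tested were lower and 9.24% higher. Ecm1, an extracellular protein, was at 209, 235 and 217 in PD1hi and 4495, 4455 and 5028 in Treg (-4.39 ± 0.12). Gpr83, a neuropeptide receptor, was at 518, 314 and 486 against 9505, 7945 and 8952 (-4.35 ± 0.15). Swap70, a guanine nucleotide exchange factor for Rac, was at 279, 251 and 219.6 against 2272, 2022 and 2075 (-3.09 ± 0.15), and Fgl2, a secreted suppressive protein, changed by -3.85 ± 0.15. The members that rose, 1 in number without PD1hi experiment 5 or any 1 Treg value and 5 without PD1hi experiment 6, were Penk (proenkephalin, 0.90 ± 0.13), the zinc finger factor Plagl1 (2.44 ± 0.67) and the inhibitory receptor Tigit (0.59 ± 0.17). The call of Plagl1 was lost without PD1hi experiment 5 (limma adjusted p = 0.0908) or Treg experiment 3, 5 or 6 (0.15, 0.0611 and 0.0713).

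Genes of the Treg programme that did not pass had values of the same order in both populations. Ikzf2 (Helios) was at 17810, 14134 and 17888 in PD1hi and 20114, 19660 and 23054 in Treg (-0.34 ± 0.14, limma adjusted p = 0.148). Nrp1, a semaphorin receptor, was at 20791, 22713 and 18437 against 14205, 17538 and 17556 (0.33 ± 0.13, adjusted p = 0.123). Folr4 (Izumo1r, folate receptor 4) was at 18800, 20336 and 23188 against 20588, 19625 and 18663 (0.08 ± 0.14, adjusted p = 0.748). Nt5e (CD73), which makes adenosine, changed by 0.26 ± 0.25 (adjusted p = 0.536), while its upstream partner Entpd1 (CD39) changed by -1.47 ± 0.13 (adjusted p = 8.68e-05). Without PD1hi experiment 6 the changes of Ikzf2, Nrp1 and Nt5e were -0.40, 0.38 and 0.62 and passed (adjusted p = 0.0467, 0.0374 and 0.0055). A difference that does not pass does not show equal levels.

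Among the 768 genes lower in PD1hi by over 2-fold (5.38% of genes tested), those with the highest scaled counts in Treg included, beside Il2ra, Gbp7 and Ifngr1, the nucleotide hydrolase Samhd1, at 5808, 6115 and 6209 against 21439, 22426 and 23991 (-1.90 ± 0.10), the phosphoinositide phosphatase Inpp4b, at 9975, 10851 and 7907 against 17594, 21242 and 23450 (-1.12 ± 0.16), and Rapgef6, an activator of Rap1, at 6364, 7670 and 5186 against 13456, 17372 and 21014 (-1.43 ± 0.19). For each of the 3, the PD1hi values lay below all Treg values.

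Homing receptors separated the populations. Of 19 chemokine and related receptors, 6 were higher in PD1hi and 9 lower. Cxcr5, which leads cells to the follicle, was at 19757, 15324 and 17411 in PD1hi and 3978, 4897 and 5117 in Treg (1.91 ± 0.16). S1pr2, which holds cells in the germinal centre, was at 1191, 975 and 1511 against 218, 254 and 215 (2.40 ± 0.26), and Gpr183 (EBI2) and Cxcr6 rose by 1.15 ± 0.14 and 1.74 ± 0.29. Lower were receptors for inflamed tissue, skin and gut: Ccr2 at 224, 446 and 144 against 4321, 4238 and 4209 (-4.12 ± 0.27), Ccr6 at 62.5, 30.3 and 91.3 against 1687, 1743 and 1246 (-4.76 ± 0.38), Ccr9 (-3.63 ± 0.22) and Ccr4 (-3.33 ± 0.27). Cxcr3 did not pass (0.14 ± 0.11).

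Adhesion genes moved with them. Selplg, the ligand of P-selectin, was at 1463, 3777 and 2197 in PD1hi and 9373, 14314 and 9067 in Treg (-2.22 ± 0.17). Of 22 integrins and adhesion receptors, 11 were lower and 4 higher: Itgae, Itga6 and Itgb7 were lower (-7.96 ± 0.20, -2.03 ± 0.13 and -1.48 ± 0.17), whereas Itgb1 and Itgal rose by 1.60 ± 0.13 and 0.98 ± 0.13 and Cd44, the receptor of hyaluronan, was at 12272, 10558 and 10765 against 5990, 5802 and 5057.

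Cytotoxic genes did not move as a group, with 4 of 12 higher and 3 lower, against 9.24% and 9.1% of all genes tested. Without PD1hi experiment 3 or 5 or Treg experiment 3 or 5, or with the conventional cells left out of the fit, 2 were higher. Gzmk, a granzyme of memory T cells, was at 1557, 2041 and 1045 in PD1hi and 18.6, 33.9 and 26.8 in Treg (5.80 ± 0.22), and Nkg7, a granule protein, at 1858, 3206 and 2637 against 792, 613 and 581 (1.93 ± 0.22). Prf1 (perforin) was lower, at 199, 348 and 213 against 550.2, 735 and 714 (-1.43 ± 0.20). Of survival genes, Bcl2a1d and Bcl2a1b, near-identical copies whose reads may be split, rose by 2.41 ± 0.17 and 1.25 ± 0.14, while Bcl2l1 (Bcl-xL) and its opponent Bcl2l11 (Bim) were lower (-1.03 ± 0.16 and -0.98 ± 0.16); Bcl2 itself did not pass (-0.04 ± 0.12).

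Metabolic genes differed in single enzymes and transporters. Slc2a3, a high-affinity glucose transporter, was at 669, 867 and 650.1 in PD1hi and 8173, 9212 and 9971 in Treg (-3.65 ± 0.14). Within glycolysis, Aldoa was at 25539, 25464 and 30188 in PD1hi against 13302, 14014 and 13041 in Treg, Pfkl and Gapdh rose by 0.73 ± 0.12 and 0.67 ± 0.12, and Ldha did not pass (-0.10 ± 0.11). Pdk1, a kinase that inhibits pyruvate dehydrogenase, changed by -1.55 ± 0.14. Over the list, 7 of 20 were higher and 2 lower, and 4 were higher with the conventional cells left out of the fit. Of 75 subunits of oxidative phosphorylation encoded in the nucleus, 1 was higher and none was lower, 1.33% against 18.3% of all genes tested. That 1 gene lost its call without PD1hi experiment 5 or Treg experiment 5 or 6, while 2 were higher and 1 lower without PD1hi experiment 6, and 4 were higher without the second Treg library of experiment 3. With the conventional cells left out of the fit none was higher. In the cholesterol list, 7 of 21 were lower and 1 was higher (3 lower without Treg experiment 3 or with the conventional cells left out of the fit, 4 without PD1hi experiment 3 or Treg experiment 5), with the squalene epoxidase Sqle at -1.25.

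Ribosomal protein genes were lower by a small amount. Of 77 tested, 29 were lower and none was higher, with a median change of -0.31 and medians of -0.56, -0.28 and -0.15 in experiments 3, 5 and 6. The count depends on the scaling and on single libraries: 10 were lower with libraries set to equal totals, 15 without the pairing by experiment and 3 with the conventional cells left out of the fit. It was 3 without PD1hi or Treg experiment 3, 10 and 6 without PD1hi or Treg experiment 5, 54 and 11 without PD1hi or Treg experiment 6, and 53 without the pair of libraries that stood apart.

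Among cell cycle genes a minority passed, in 1 direction. Of 29 tested, 7 were higher in PD1hi and none was lower (median 0.46), against 9.24% and 9.1% of all genes tested. The count was 1 with the conventional cells left out of the fit, 4 without the pairing, 3 and 4 without PD1hi or Treg experiment 3, 1 without either value of experiment 5, and 13 without PD1hi experiment 6. Cdk1 and Plk1, kinases of mitosis, rose by 0.90 ± 0.20 and 0.90 ± 0.21, calls lost without PD1hi experiment 5 (limma adjusted p = 0.0589 and 0.0939) or Treg experiment 5 (0.0791 and 0.0982), for Plk1 with the conventional cells left out of the fit (0.0572), and for Cdk1 without PD1hi experiment 3 (0.0549) or the pairing (0.0556), while Mki67 was at 1864, 2024 and 2201 in PD1hi and 1668, 1258 and 1526 in Treg and did not pass (0.46 ± 0.17, adjusted p = 0.107). Cdkn2b, a cyclin-dependent kinase inhibitor, was higher, at 77.9, 112 and 40.2 against 9.58, 4.7 and 0. The other members of the 12 D cyclins, their kinases and inhibitors did not pass. The share of this list that passed, 8.33%, lay near the 9.24% of all genes tested that were higher. That count of 1 was 2 without PD1hi experiment 3 or 6 or Treg experiment 3, and 4 without the second Treg library of experiment 3.

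**Figure D4:**
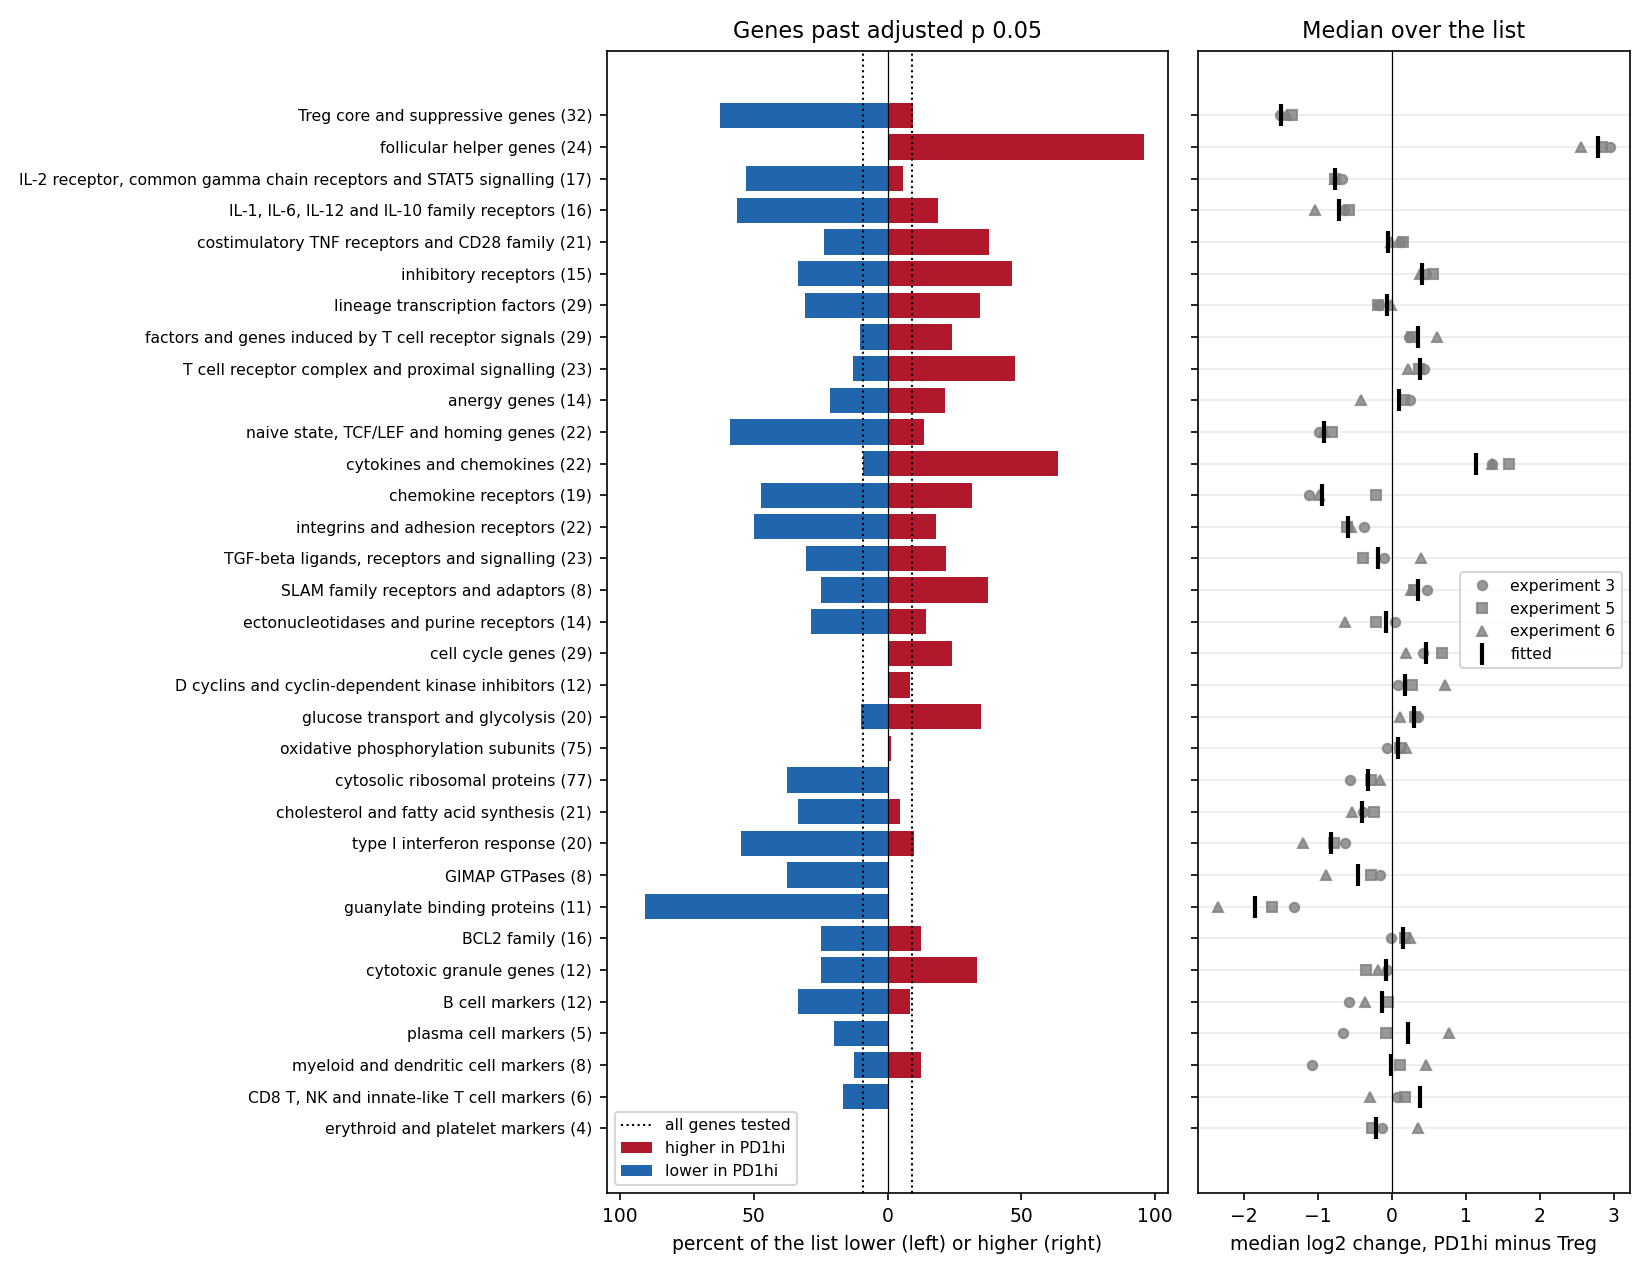
Left, percent of each gene list (number tested in brackets) past adjusted p 0.05, drawn to the right in red where higher in PD1hi and to the left in blue where lower, with dotted lines at 9.24% and 9.1%, the shares of all genes; right, median log2 change of the list, fitted (tick) and in experiments 3, 5 and 6 (symbols). Follicular helper genes and cytokines extend to the right, and Treg genes, guanylate binding proteins and IL-2 family receptors to the left.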

How the data were processed

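RNA was extracted with Trizol, depleted of ribosomal RNA and made into Ion Torrent libraries, per the labels' protocols. The submitters' processing notes name HTSeq 0.5.4, Picard and limma, and as builds mm9, hg19 and GRCh37 with no role given. No source used here states the aligner or the strand setting. The authors deposited signal values, counts scaled by size factors, for 18649 genes in 13 libraries. Once an added 1 was subtracted, all values were whole multiples of a constant of the library (tolerance 0.001 reads); those multiples, the reads, served for depth and floors only.

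Libraries of 1 experiment and population were averaged. The Treg pairs of experiments 3 and 6 gave a chi-square per degree of freedom of 73.5 and 9.047, where sampling noise alone gives about 1, and Treg libraries of different experiments 16.48 to 92.73. Genes averaging a scaled count of 10 or more over the 6 values were fitted with limma 3.58.1 (R 4.3.3) on log2(scaled count + 1). Experiment was a block and the conventional cells shared the variance. The fold of low genes is understated on this scale. The test had first been tried on simulated data. Those data gave every library the same spread, unlike the libraries here, so the trial does not vouch for the test on them. The pairing comes from the experiment numbers in the titles; deviations of same-numbered PD1hi and Treg values correlated at 0.092, 0.164 and -0.0685. Folds with 0 reads on a side use a floor of 3 reads over that population, and ratios with 1 to 3 reads an exact 95% interval, both for counting error only.

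Named genes are Pdcd1, Foxp3 and Cd4, the 12 largest changes each way among genes at 200 or more, the 8 with the highest scaled count each way among those over 2-fold, and members of gene lists; genes of overlapping loci and of the families so described were chosen after their values were seen. The populations and lists were chosen with earlier results of these data known. Gene positions are from GENCODE M21 (GRCm38); 8759 of 14227 tested symbols had a RefSeq promoter. Some genes the naming rule picks are not reported here. Alternatives changed the block, the groups fitted, the pseudocount (10, 0.5), the minimum (50, none), the scaling and the libraries used.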

Additional observations from a re-analysis of the deposited data

How the results depend on the processing

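Fits that left out 1 of the 6 values are given further below. Under all other alternatives but 1, the number of genes past the test, 2616, stayed within 1.5 times. It ran from 2257 (minimum mean of 50) to 3586 (without the pair of libraries that stood apart, an alternative chosen after seeing the data). Without the replicate block that pairs samples by experiment, 2386 genes passed, 2311 of them among the 2616. The exception was the fit of PD1hi and Treg alone, with 1682 genes, 864 higher and 818 lower, where fewer values estimate the spread. Leaving out 1 of the 6 values gave 1609 to 3692 genes, 813 to 1839 higher and 796 to 1853 lower. The lowest counts, also beyond 1.5 times, came without Treg experiment 5 and the highest without PD1hi experiment 6. With an arm of 2 values, their spread is assumed to be that of the other groups. Setting libraries to equal totals shifted the median of all genes by 0.0769 and made 57.1% of calls higher instead of 50.4%.

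Over 191 genes with printed changes, 3160 of 3242 values kept their direction and side of the threshold. 12 genes lost a call under at least 1 alternative and 7 gained one. 9 genes that did not pass changed sign: with equal totals Bcl2 (0.0349) and Gata3 (0.0375), without both libraries that stood apart Folr4 (-0.0716), with TMM factors Vipr1 (-0.0181), without libraries titled replicate Vipr1 (-0.00511), without the second Treg library of experiment 3 Vipr1 (-0.0199), and over the fits that leave out 1 value Bcl2 (-0.11 to 0.0464), Folr4 (-0.0561 to 0.174), Gata3 (-0.145 to 0.0919), Il10 (-0.591 to 0.199), Il2 (-0.134 to 2.29), Isg15 (-0.284 to 0.0164), Nt5e (-0.0199 to 0.62), Tgfb1 (-0.0499 to 0.779), Vipr1 (-0.164 to 0.253). The cause was not tested. Count models were planned and were not run. Genes averaging under 10 scaled counts were left out of the main test by choice. With no minimum, 18639 genes were tested and 2738 passed.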

Other observations

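Beyond the lists above, several groups were looked at after their values were seen and are given as descriptions. Of 9 tested genes of peptide hormones and neuropeptides and of their processing and receptors, 7 were higher in PD1hi and none was lower. Gal and Edn3, members of this list, were already named among the largest increases. Gal, Edn3, Qrfp, Stc2, Pcsk1 and Vipr2 averaged under 10 in Treg and reached the minimum mean only through PD1hi. The filter thus sets their direction, and the count describes a chosen list. Over all genes tested, 9.24% were higher and 9.1% lower. Qrfp, a neuropeptide of the RFamide family, was at 232, 252 and 250.0 in PD1hi and 9.79, 0 and 3.16 in Treg in experiments 3, 5 and 6. Stc2, a secreted glycoprotein hormone, was at 249, 158 and 357 against 0, 0 and 0.539. Pcsk1, a convertase that cuts prohormones, was at 281, 615 and 217 against 5.87, 5.64 and 7.31 (5.54 ± 0.36, limma adjusted p = 1.94e-05). Vipr2, a receptor of vasoactive intestinal peptide, was at 655, 401 and 469.7 against 4.6, 13.2 and 0, while its relative Vipr1 had overlapping values, at 36.9, 64.7 and 58.7 against 36.4, 49.8 and 76.3.

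Of 21 vacuolar ATPase genes tested, 4 were lower in PD1hi and 1 was higher, with a median change of 0.09; over all genes tested 9.1% were lower and 9.24% higher. Atp6v0a1 was at 66.6, 105 and 140.2 in PD1hi and 411, 437 and 462 in Treg (-2.12 ± 0.24). Atp6v0e2, the member that rose, was at 117, 11.1 and 35.9 against 2.17, 0 and 1.48 (4.24 ± 0.97, limma adjusted p = 0.0158), and did not pass without PD1hi experiment 3 (0.0886) or Treg experiment 3 or 5 (0.0529 and 0.0789). Atp6v0d1, the widely expressed paralogue of Atp6v0d2, was at 1035, 1219 and 1169 against 856, 1114 and 739.9 (0.35 ± 0.14, limma adjusted p = 0.118).

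Matrix genes went both ways, with 6 of 11 tested higher and 3 lower, against 9.24% and 9.1% of all genes tested. The list had 17 genes, and those not tested were below the minimum mean. Of the higher members, Spp1, Fbn2, Tnc and Coch averaged under 10 in Treg and passed that filter only through PD1hi. Ccdc80 was at 784, 817 and 905 in PD1hi against 77.2, 143 and 66.1 in Treg. Lamc1, a laminin chain, was at 116, 62.6 and 124 against 1105, 716 and 835. None of 13 protein genes encoded by the mitochondrial genome passed in either direction with limma, and none had an unadjusted p under 0.05; without PD1hi experiment 6, 3 were lower. Of 8 GIMAP GTPase genes, 3 were lower and none was higher, where 9.1% of all genes tested were lower and 9.24% higher. Without Treg experiment 5 or 6, or with the conventional cells left out of the fit, 1 was lower. Gimap7 was at 5838, 6071 and 5976 against 11794, 11789 and 11118 (-0.96 ± 0.11).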
